A study of Mus musculus with 4 samples.

Results

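Pericyte genes were examined in airway smooth muscle cells that had been sorted from the lungs of adult mice. The genes are 8 of the 23185 named genes on the arrays and were taken by their symbols: Cspg4, Pdgfrb, Rgs5, Abcc9, Mcam, Higd1b, Cox4i2 and Ndufa4l2. Each is measured by 1 probe set, and all 8 passed the filter on low values, which kept the 12395 genes whose highest log2 value on any array reached 6.05, the median of all named values.

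The series holds 4 arrays, 1 each for VAD, VAS, BMS and CTR, and each array carries RNA pooled from 3 mice. All mice carried the same pair of transgenes, Acta2-hrGFP and Cspg4-DsRED, in which a green reporter follows smooth muscle actin and a red reporter follows Cspg4. Green cells without red were collected from every group, so cells in which the Cspg4 reporter was on were left out of all 4 pools. VAD mice ate a diet with under 0.1 IU of vitamin A per gram, for 3 days by the sample label and for 5 days by another sentence of the protocol, and VAS mice ate a normal diet with 15 IU per gram. BMS mice ate a powdered, vitamin A-sufficient diet for 3 days with an antagonist of all retinoic acid receptors, named BMS in the labels, at 5 mcg per gram. CTR mice ate the same powdered diet for 3 days with corn oil. The mice had a strain background not given in the sources used here.

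Pericytes are mural cells that sit on capillaries inside the endothelial basement membrane, share much of their gene expression with vascular smooth muscle, and depend on platelet-derived growth factor from endothelial cells. No single gene marks them alone: Cspg4 and Pdgfrb are also used by other mesenchymal cells, and Rgs5 and Mcam by vascular smooth muscle. In the lung, Higd1b, Cox4i2 and Ndufa4l2, which encode small mitochondrial proteins, are used with them as pericyte markers. The 8 genes therefore fall into a group of surface and signalling genes (Cspg4, Pdgfrb, Rgs5, Abcc9 and Mcam) and a mitochondrial group (Higd1b, Cox4i2 and Ndufa4l2), a grouping by known function that was made with the values in view.

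All values below are log2 expression values from the authors' RMA processing, and a difference of 1 is a doubling. With 1 array per group there is no spread between mice or arrays within a group. A difference therefore compares 2 arrays, and neighbouring levels cannot be said to differ beyond replicate error. Wherever a gene is called higher or lower, the word refers to the arrays and not to mice in general. The medians of the 4 arrays ran from 5.97 to 6.02 and their upper quartiles from 7.61 to 7.63. Pearson correlations between arrays across all 25206 probe sets ran from 0.987 to 0.992, and probe sets are not independent replicates. Acta2, the gene behind the green reporter, was at 12.12 on the VAD array, 11.96 on VAS, 11.95 on BMS and 11.98 on CTR.

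The promoter sequences are shown for 3 genes: Cspg4, because its regulatory DNA drove the reporter that excluded cells, and Abcc9 with its channel partner Kcnj8, because their differences had the same sign in VAD minus VAS, BMS minus CTR and CTR minus VAS. They come from RefSeq, build GRCm38.p6, and run from 250 bases before to 50 bases after the annotated start, 5′ to 3′ on the gene's own strand. Of the 8 genes, 4 had an entry (Cspg4, Rgs5, Abcc9 and Mcam). Capitals mark TGGGAA, the core letters bound by RBPJ, the DNA-binding protein of Notch signalling. The Cspg4 window is chr9:56864854-56865153 on the plus strand, the Abcc9 window chr6:142702225-142702524 on the minus strand, and the Kcnj8 window chr6:142571565-142571864 on the minus strand.
Cspg4: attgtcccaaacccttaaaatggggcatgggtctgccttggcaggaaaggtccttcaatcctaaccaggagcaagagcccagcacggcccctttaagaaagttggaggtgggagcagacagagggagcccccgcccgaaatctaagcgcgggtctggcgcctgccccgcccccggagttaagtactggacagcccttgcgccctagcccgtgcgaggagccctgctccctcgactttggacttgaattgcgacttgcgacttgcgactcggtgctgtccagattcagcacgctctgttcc
Abcc9: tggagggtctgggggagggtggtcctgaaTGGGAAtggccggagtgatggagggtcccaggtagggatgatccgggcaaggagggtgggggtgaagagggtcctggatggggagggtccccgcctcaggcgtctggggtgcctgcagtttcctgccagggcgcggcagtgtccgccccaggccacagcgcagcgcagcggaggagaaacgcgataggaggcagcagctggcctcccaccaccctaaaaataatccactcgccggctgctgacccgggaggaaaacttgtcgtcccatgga
Kcnj8: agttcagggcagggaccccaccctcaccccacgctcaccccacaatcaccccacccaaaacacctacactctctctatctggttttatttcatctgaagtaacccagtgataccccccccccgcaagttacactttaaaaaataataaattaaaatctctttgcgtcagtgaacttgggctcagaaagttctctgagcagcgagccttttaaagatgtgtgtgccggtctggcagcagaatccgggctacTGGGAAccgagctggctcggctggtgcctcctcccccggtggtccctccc
TGGGAA occurred once in the Abcc9 window, at bases 30 to 35 of the 300, and once in the Kcnj8 window, at bases 251 to 256, and the Cspg4 window did not hold it. Read on both strands, these letters occur in 25.6% of the 32851 promoters of that length in the table, so a match is common. The core letters of the hypoxia response element, ACGTG, occur in 19.6% of promoters and the CArG box of smooth muscle genes in 1.63%. The direct repeats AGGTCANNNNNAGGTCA and AGGTCANNAGGTCA, strict forms of retinoic acid response elements, occur in 3 promoters each. None of these 4 further motifs, searched on both strands, was found in the 3 windows shown or in those of Rgs5 and Mcam, and no 2 matches overlapped. These are matches of letters in a short window and not measured binding sites.

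Cspg4 (Entrez gene 121021) encodes the NG2 proteoglycan of the pericyte surface. Its level was 8.22 on the VAD array and 7.71 on VAS, a difference of 0.51 or 1.42-fold. In the antagonist experiment it was 7.98 on BMS and 8.08 on CTR, a difference of -0.09. The messenger RNA of the excluded reporter's gene was therefore measured on all 4 arrays at 7.71 or above, past every array's upper quartile of probe set values. Probe sets differ in brightness, so this place on the array does not give an amount of RNA. In the diet comparison, 2.27% of genes past the filter had a difference as high as that of Cspg4 or higher. Because RNA was pooled, fewer cells of a type and less RNA per cell cannot be told apart for this gene or any other.

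Pdgfrb (Entrez gene 18596) encodes the receptor through which pericytes respond to platelet-derived growth factor B. It stood at 10.78 on VAD and 10.36 on VAS, a difference of 0.42. It stood at 10.99 on BMS and 11.29 on CTR, a difference of -0.30. The control arrays were further apart than either treated array was from its control: CTR was 0.93 above VAS, or 1.91-fold. In that comparison, 0.428% of genes reached a difference as high. From high to low the order was CTR, BMS, VAD and VAS, so both arrays of the antagonist experiment were above both arrays of the diet experiment.

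Rgs5 (Entrez gene 19737) encodes a regulator of G protein signalling that is abundant in pericytes and vascular smooth muscle. It was at 9.93 on VAD and 9.90 on VAS, and at 10.27 on BMS and 10.24 on CTR. Within each experiment the difference was 0.03, the smallest of the 8 genes in both. The sign of the BMS difference did not hold under a repeated quantile normalization, which gave -0.01. The experiments themselves were apart, with CTR 0.34 above VAS.

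Abcc9 (Entrez gene 20928) encodes SUR2, the regulatory subunit of the ATP-sensitive potassium channel of mural cells. It was at 10.07 on VAD and 9.85 on VAS, a difference of 0.23, and at 9.75 on BMS and 10.00 on CTR, a difference of -0.25. Kcnj8, which encodes Kir6.1, the pore of the same channel, lies next to Abcc9 on mouse chromosome 6 with 0 protein-coding genes between them. It was at 9.34 on VAD and 8.97 on VAS, a difference of 0.37, and at 9.21 on BMS and 9.51 on CTR, a difference of -0.30. Both channel genes were thus higher in VAD than in VAS and lower in BMS than in CTR, and both were higher in CTR than in VAS, Abcc9 by 0.16 and Kcnj8 by 0.54. With the controls exchanged their signs parted: VAD minus CTR was 0.07 for Abcc9 and -0.17 for Kcnj8, and BMS minus VAS was -0.09 for Abcc9 and 0.24 for Kcnj8. Of the other gene pair of this channel family, Kcnj11, which encodes Kir6.2, differed by -0.04 in VAD, -0.23 in BMS and 0.02 in CTR against VAS. Abcc8, which encodes SUR1, stayed below the filter on all arrays, at 5.33 on VAD, 5.34 on VAS, 5.37 on BMS and 5.39 on CTR.

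Mcam (Entrez gene 84004) encodes CD146, an adhesion molecule of pericytes, smooth muscle and endothelium. It was at 10.95 on VAD and 10.67 on VAS, a difference of 0.28. On BMS it was at 10.73 and on CTR at 11.0, a difference of -0.27. VAS and BMS were the lower arrays and CTR and VAD the higher ones, and CTR was 0.33 above VAS.

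Higd1b (Entrez gene 75689) encodes a mitochondrial inner membrane protein of the hypoxia-induced gene domain family. It was at 7.57 on VAD and 8.28 on VAS, a difference of -0.71, or 1.64-fold lower in VAD. It was at 8.31 on BMS and 8.57 on CTR, a difference of -0.26. VAD was the lowest of the arrays and the other 3 lay within 8.28 to 8.57. In the diet comparison, 1.28% of genes past the filter had a difference as low.

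Cox4i2 (Entrez gene 84682) encodes the oxygen-sensitive isoform of subunit 4 of cytochrome c oxidase, the last complex of the respiratory chain. It was at 8.09 on VAD and 8.33 on VAS, a difference of -0.24, and at 8.45 on BMS and 8.63 on CTR, a difference of -0.17. Ndufa4l2 (Entrez gene 407790) encodes a relative of the respiratory chain protein NDUFA4 and is a target of hypoxia-inducible factor. It was at 5.69 on VAD and 6.20 on VAS, a difference of -0.52, and at 6.27 on BMS and 6.36 on CTR, a difference of -0.09. On its VAD array Ndufa4l2 was below the filter value of 6.05, which it passed through the other 3 arrays. All 3 mitochondrial genes had the same order of arrays: CTR highest, then BMS, VAS and VAD.

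**Figure D1:**
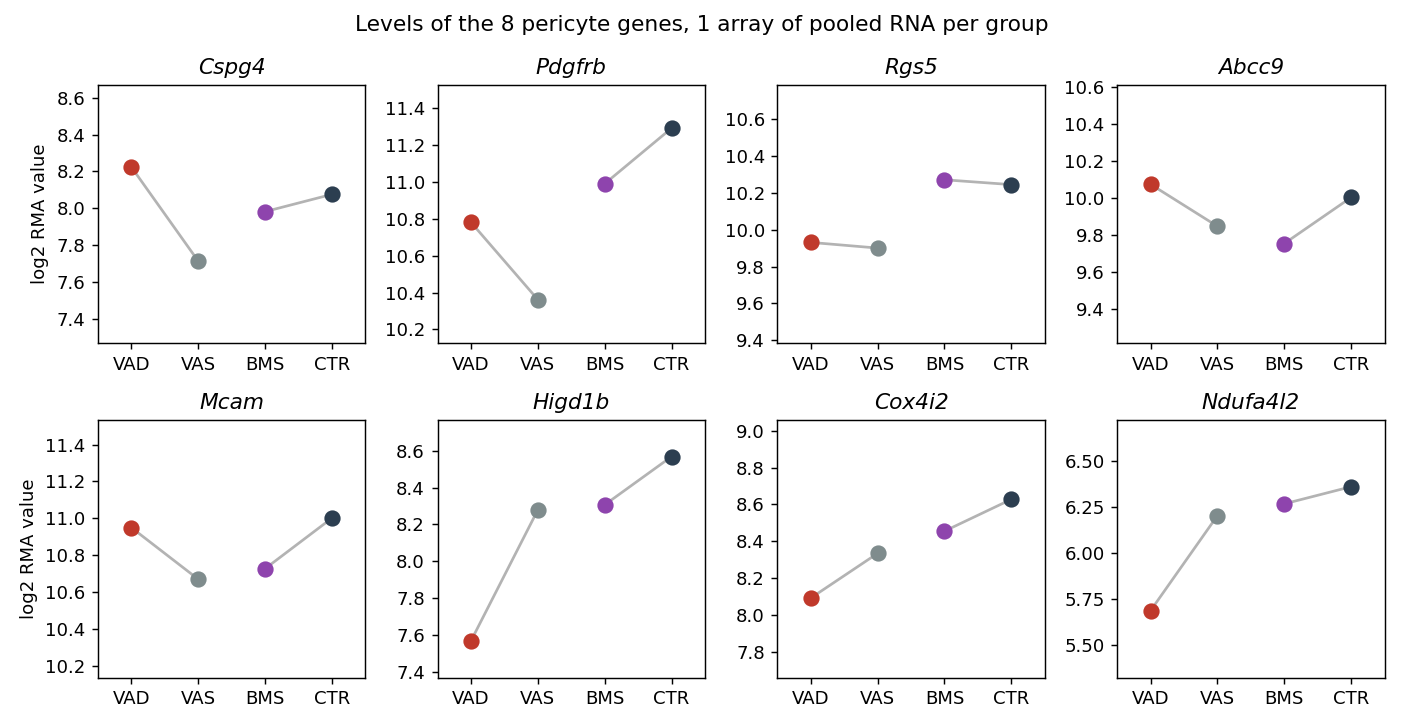
Levels of the 8 genes as log2 RMA values on the VAD, VAS, BMS and CTR arrays, 1 point per array of pooled RNA, with lines joining the arrays of 1 experiment; every panel spans the same log2 range around its own middle. Cspg4, Pdgfrb, Abcc9 and Mcam are higher on VAD than on VAS and lower on BMS than on CTR, while Higd1b, Cox4i2 and Ndufa4l2 are lowest on VAD.

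The first comparison, VAD against VAS, addressed the effect of removing vitamin A from the diet. The 8 genes did not move as a block. The 5 surface and signalling genes were above 0, from 0.03 to 0.51 with a median of 0.28. The 3 mitochondrial genes were below 0, from -0.71 to -0.24 with a median of -0.52. This grouping was made with the values in view, so the split is a description and not a test. The median of -0.52 is the value of Ndufa4l2, which was below the filter on VAD and passed it through the other arrays. Among all genes past the filter 51.4% were above 0 and 48.5% below, and their median was 0.01. Higd1b was the 1 gene of the 8 at least 1.5-fold lower in VAD, where 2.11% of all genes were, and 0 of the 8 were at least 1.5-fold higher, where 1.45% were. The directions rest on the VAS array for Pdgfrb, Rgs5 and Mcam. Against CTR in place of VAS these 3 differed by -0.51, -0.31 and -0.05 in VAD, whereas Higd1b (-0.999), Cox4i2 (-0.54) and Ndufa4l2 (-0.67) were further below and Cspg4 (0.15) and Abcc9 (0.07) stayed above 0.

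The second comparison, BMS against CTR, addressed the effect of the receptor antagonist. Here 7 of the 8 genes were below 0, where 48.5% of all genes were, with Rgs5 as the exception, and the median of the 8 was -0.21 beside 0.01 for all genes past the filter. This direction was not particular to the 8: of 14 smooth muscle markers past the filter, 0 were above 0. The differences were small, from -0.30 for Pdgfrb to 0.03 for Rgs5. None of the 8 was at least 1.5-fold lower, where 1.89% of all genes were, or at least 1.5-fold higher, where 3.11% were. Against VAS in place of CTR, 7 of the 8 were above 0, where 53.4% of all genes were. Abcc9 (-0.09) was below, and Pdgfrb was 0.63 higher in BMS. The direction of the BMS differences therefore depends on which control array is used.

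The third comparison set the vitamin A-sufficient controls against each other, CTR against VAS, which differ in experiment, form of diet, vehicle and pool of mice. All 8 genes were higher in CTR, where 50.4% of all genes were above 0. The range was 0.16 to 0.93 and the median 0.31, beside 0.00253 for all genes past the filter. Pdgfrb was the 1 gene at least 1.5-fold higher, where 2.66% of all genes were, and 0 were at least 1.5-fold lower, where 5.87% were. This comparison shares the VAS array with the diet comparison and the CTR array with the antagonist comparison, so a low VAS value raises both VAD minus VAS and CTR minus VAS, and a high CTR value lowers BMS minus CTR.

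**Figure D2:**
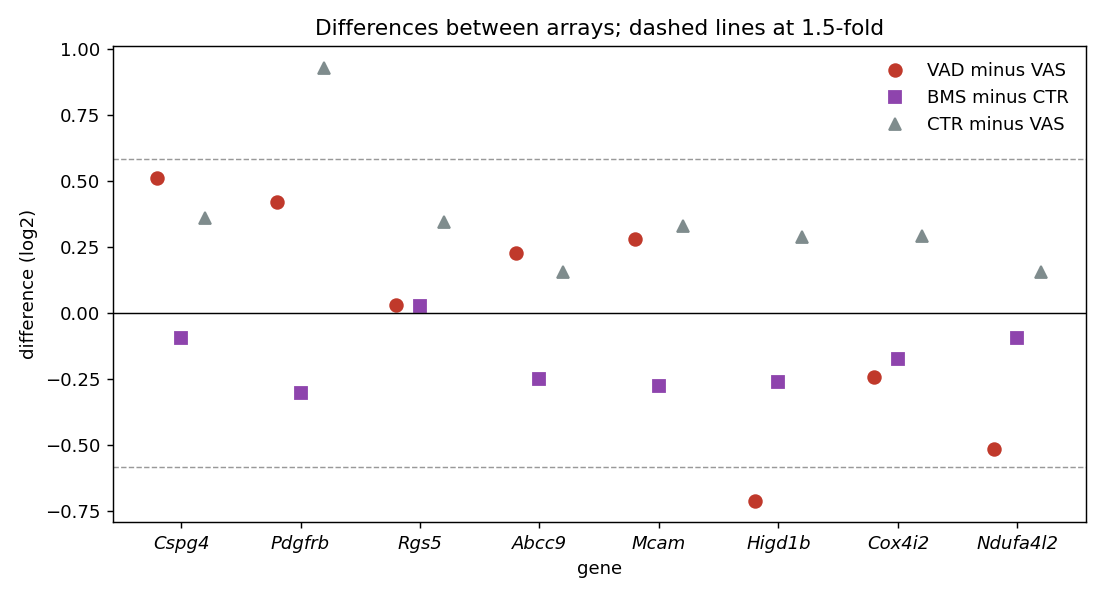
Differences in log2 value for each of the 8 genes, VAD minus VAS (circles), BMS minus CTR (squares) and CTR minus VAS (triangles), each from 2 arrays, with dashed lines at 1.5-fold. Higd1b in VAD minus VAS (-0.71) and Pdgfrb in CTR minus VAS (0.93) lie beyond the dashed lines, and all triangles lie above 0.

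The contrast with more than 1 array a side set VAD and BMS together against VAS and CTR, with the experiment as a block, in a limma fit across all 12395 genes. None of the 8 genes passed: the Benjamini-Hochberg adjusted p was 1 for each. Across all genes 0 passed (0%) and 476 had an unadjusted p under 0.05 (3.84%), among them Higd1b of the 8. Higd1b had a fitted difference of -0.49 ± 0.16 (SE, 2 arrays a side), with an unadjusted p of 0.0328 in limma, and was lower in both experiments. Ndufa4l2 had a fitted difference of -0.30 ± 0.16, Cox4i2 -0.21 ± 0.13 and Cspg4 0.21 ± 0.19. Cox4i2 and Ndufa4l2 were likewise lower in both experiments. Cspg4 was not: it had opposite signs in the experiments, with 0.51 in VAD and -0.09 in BMS. Pdgfrb, Abcc9 and Mcam also had opposite signs, and Rgs5 was near 0 in both experiments. The fitted differences of Pdgfrb, Abcc9, Mcam and Rgs5 ran from -0.01 for Abcc9 to 0.06 for Pdgfrb. Without the block, the fitted difference of Higd1b was -0.49 ± 0.28, with an unadjusted p of 0.135 in limma, so its small p depends on the block. The fit with the block has 1 residual degree of freedom before moderation, so the absence of calls is not read as absence of change.

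The relatives of the mitochondrial genes followed other orders of arrays. Cox4i1, the widely expressed isoform of the same subunit, was at 11.23 on VAD and 11.36 on VAS, a difference of -0.13, and at 11.06 on BMS and 11.11 on CTR, a difference of -0.05. Ndufa4 was at 10.02 on VAD and 10.24 on VAS, a difference of -0.23, and at 9.79 on BMS and 9.84 on CTR, a difference of -0.05. Between the controls these relatives went the other way from the pericyte genes, with CTR minus VAS of -0.25 for Cox4i1 and -0.40 for Ndufa4. Higd1a, the widely expressed relative of Higd1b, differed by -0.17 in VAD and 0.27 in BMS, and by -0.40 between CTR and VAS. Higd2a differed by -0.16 in VAD and 0.25 in BMS, and Higd1c stayed below the filter.

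Of the 17 genes past the filter among 19 measured respiratory chain genes, 1 was above 0 in VAD, where 51.4% of all genes were, with a median of -0.16. The same list had a median of 0.03 in BMS and of -0.31 in CTR against VAS, and 0 members were at least 1.5-fold apart in VAD or BMS. Among all genes 1.45% were as much higher and 2.11% lower in VAD, and 3.11% higher and 1.89% lower in BMS. Cox7a1, a muscle isoform of complex IV, differed by -0.56 in VAD and -0.18 in BMS. It was below the filter on VAD (5.97) and BMS (5.91). It passed through VAS (6.53) and CTR (6.09), the higher array of each experiment. Ndufa2 differed by -0.39 in VAD and 0.18 in BMS, and Cox6b2 by -0.34 and 0.16. The lower values of the 3 mitochondrial pericyte genes in VAD thus stood beside lower respiratory chain values in VAD, while their higher level in CTR did not. Whether one has a part in the other was not tested.

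Genes of the hypoxia response had a median of 0.11 in VAD and 0.16 in BMS, over 14 members past the filter of 17 measured, and of -0.15 in CTR against VAS. None was at least 1.5-fold apart in VAD or BMS. Among all genes 1.45% were as much higher and 2.11% lower in VAD, and 3.11% higher and 1.89% lower in BMS. Vegfa, the vascular endothelial growth factor gene, was 0.21 higher in VAD and 0.43 higher in BMS. Egln3, a prolyl hydroxylase gene that hypoxia-inducible factor induces, differed by -0.43 in VAD and 0.20 in BMS, and Ankrd37, another such target, by -0.35 and -0.28. The medians of the list were above 0 in both experiments, where Ndufa4l2, Cox4i2 and Higd1b were below. Egln3 in VAD and Ankrd37 in both experiments were below 0 as well. Whether a hypoxia response has a part in the values of the 3 mitochondrial genes was not tested.

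**Figure D3:**
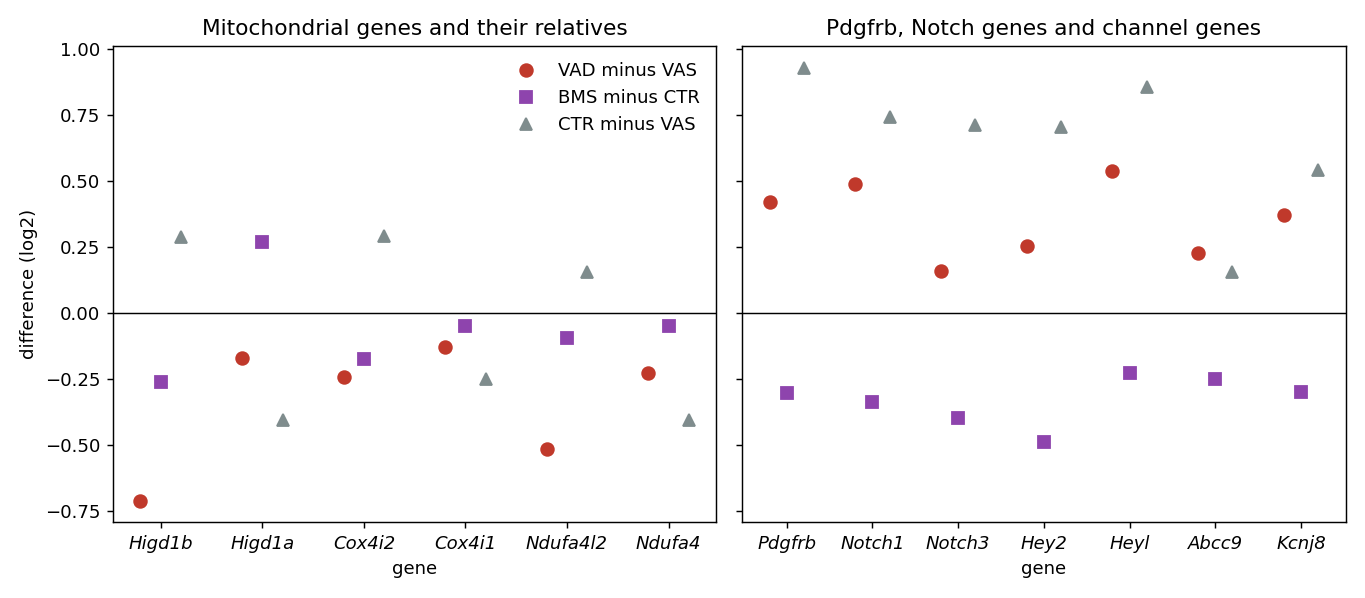
Differences in log2 value, VAD minus VAS (circles), BMS minus CTR (squares) and CTR minus VAS (triangles), for the mitochondrial pericyte genes beside their relatives (left) and for Pdgfrb, Notch genes and both channel genes (right). The triangles of Higd1b, Cox4i2 and Ndufa4l2 are above 0 and those of Higd1a, Cox4i1 and Ndufa4 below. Every gene drawn on the right has its square below 0 and its circle and triangle above. The Notch genes drawn are Notch1, Notch3, Hey2 and Heyl, and Notch4, Dll1, Hes1, Hey1 and Nrarp, which had other signs, are not drawn.

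Relatives of the other genes differed less or in other ways. Rgs4 lies next to Rgs5 on mouse chromosome 1 and encodes another small regulator of G protein signalling. It was at 7.66 on VAD and 7.89 on VAS, a difference of -0.23, and at 7.47 on BMS and 8.02 on CTR, a difference of -0.55, where Rgs5 differed by 0.03 in both. Rgs2 differed by -0.20 in VAD and -0.19 in BMS, and Rgs16 by -0.43 and 0.03. Cspg5, a brain proteoglycan gene named in series with Cspg4, differed by -0.43 in VAD and -0.23 in BMS. On VAD (5.91) Cspg5 was below the filter, which it passed through the other arrays. Of the 10 genes past the filter among these 12 relatives and partners, 0 were at least 1.5-fold apart within either experiment. Among all genes 1.45% were as much higher and 2.11% lower in VAD, and 3.11% higher and 1.89% lower in BMS. The medians of these relatives and partners were -0.18 in VAD, -0.12 in BMS and -0.11 in CTR against VAS.

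The PDGF signalling list had medians of 0.04 in VAD, 0.01 in BMS and 0.16 in CTR against VAS over 13 members past the filter of 14. Pdgfb, the ligand gene of endothelial cells, was below the filter on all 4 arrays. Pdgfra, the sister receptor that marks fibroblasts, was at 9.38 on VAD and 8.96 on VAS, a difference of 0.42, and at 9.64 on BMS and 8.57 on CTR, a difference of 1.07. It was the 1 member at least 1.5-fold apart within an experiment, being higher in BMS, where 3.11% of all genes were and 1.89% were as much lower. No member was so far apart in VAD, where 1.45% of all genes were as much higher and 2.11% lower. Pdgfra was thus lower in CTR than in VAS, by -0.38, where Pdgfrb was higher. Shc1, an adaptor of growth factor receptors, differed by 0.34 in VAD and 0.08 in BMS, and Lrp1, a large endocytic receptor that binds PDGF receptor, by 0.35 in VAD and 0.00175 in BMS.

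Notch signalling maintains mural cells, with Notch3 as their main receptor, and Heyl and Hey2 are among the target genes of the pathway. Notch3 was at 9.27 on VAD and 9.12 on VAS, a difference of 0.16, and at 9.43 on BMS and 9.83 on CTR, a difference of -0.40. Heyl was at 9.37 on VAD and 8.83 on VAS, a difference of 0.54, and at 9.46 on BMS and 9.68 on CTR, a difference of -0.23. Hey2 differed by 0.26 in VAD and -0.49 in BMS, and Notch1 by 0.49 and -0.34. Each of these 4 genes had the signs of Pdgfrb, Abcc9 and Mcam, and they were the 4 of the 11 Notch genes past the filter that were at least 1.5-fold higher in CTR than in VAS, where 2.66% of all genes were: Heyl by 0.86, Notch1 by 0.74, Notch3 by 0.71 and Hey2 by 0.71. Notch2 had the same signs, with 0.26 in VAD, -0.22 in BMS and 0.51 in CTR against VAS, and so had the ligand gene Jag1, with 0.46, -0.03 and 0.16. The remaining genes of the list past the filter had other signs. Hey1 had -0.03 in VAD, 0.06 in BMS and -0.20 in CTR against VAS, and Hes1 had -0.18, -0.25 and -0.32. Notch4 had -0.10, 0.09 and -0.20 in the same order, Dll1 0.10, 0.32 and 0.23, and Nrarp 0.03, 0.03 and 0.21. Over 11 members past the filter of 14, the medians were 0.16 in VAD, -0.22 in BMS and 0.23 in CTR against VAS.

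By likeness of the 4 centred values, no gene of the 8 reached the span of 1 set for a search. Pdgfrb and Higd1b came nearest, with spans of 0.93 and 0.999, and the search was made for both after their values were seen, with the limit at 0.9. The genes nearest to Pdgfrb over the 4 arrays were Gpr146, an orphan receptor gene, Phf1, a chromatin protein gene, and Ltbp2, a matrix protein gene of elastic fibres, at Euclidean distances of 0.0354, 0.0618 and 0.0936 on the log2 scale. Nearest to Higd1b were Per2, a circadian clock gene, Cubn, which encodes cubilin, and Art3, an ADP-ribosyltransferase gene, at 0.065, 0.126 and 0.145. Per2 was at 6.15 on VAD and 6.88 on VAS, and at 6.97 on BMS and 7.21 on CTR. Art3 was also on the list of other pericyte genes, and was at 6.77 on VAD and 7.56 on VAS, and at 7.57 on BMS and 7.66 on CTR. These distances describe 4 arrays searched over 12395 genes.

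Other pericyte and mural genes were mixed. Of 16 listed, 15 were measured and 14 passed the filter, and their medians were -0.26 in VAD, -0.13 in BMS and 0.11 in CTR against VAS. In VAD 5 of the 14 were above 0, where 51.4% of all genes were. Art3 (-0.80) was the 1 member at least 1.5-fold lower, where 2.11% of all genes were, and 0 were as much higher, where 1.45% were. Gucy1a1 and Gucy1b1, the subunit genes of the nitric oxide receptor, differed by -0.16 and -0.46 in VAD and by -0.17 and -0.20 in BMS. Angpt1, the angiopoietin gene of mural cells, differed by -0.29 in VAD and -0.26 in BMS. In BMS 4 of the 14 were above 0, where 51.4% of all genes were. None was at least 1.5-fold lower, where 1.89% of all genes were, and 2 were as much higher, where 3.11% were. These were Anpep, an aminopeptidase gene that fibroblasts also express, with 2.23 (9.80 on BMS and 7.57 on CTR), and Vtn, the vitronectin gene, with 0.78. The higher value of Anpep in BMS stood beside its low value on CTR, since VAD was at 8.97 and VAS at 9.24.

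Markers of other cells moved beside these genes. The sum of linear values over the 8 genes was 6605 on VAD and 5738 on VAS, and 6823 on BMS and 7922 on CTR. Over 15 smooth muscle markers the sum was 34134 on VAD and 31335 on VAS, and 28466 on BMS and 31579 on CTR, with Chrm3 below the filter. The muscle medians were 0.14 in VAD, -0.19 in BMS and 0.06 in CTR against VAS, beside 0.13, -0.21 and 0.31 for the 8 genes. Of the 14 muscle markers past the filter, 11 were above 0 in VAD and 0 in BMS, where 51.4% of all genes were in each. Des, the desmin gene, differed by 0.40 in VAD and -0.22 in BMS, while Chrm2, the M2 muscarinic receptor gene, was 9.37 on VAD against 10.62 on VAS and 9.54 on BMS against 10.32 on CTR. Tacr2, a tachykinin receptor gene, showed differences of -0.72 in VAD and -0.75 in BMS.

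Fibroblast markers went the other way in the antagonist experiment. All 12 were past the filter, with medians of 0.000449 in VAD, 0.45 in BMS and -0.23 in CTR against VAS, and the summed levels were 24996 on VAD, 25691 on VAS, 29331 on BMS and 22329 on CTR. Cd34, a surface sialomucin gene, was 1.71 higher in BMS, Clec3b, which encodes tetranectin, 1.51 and Pi16, a peptidase inhibitor gene of adventitial fibroblasts, 1.21. These 3 stood beside low values on the CTR array: against VAS in place of CTR, BMS differed by 0.34 for Cd34, 0.02 for Clec3b and -0.92 for Pi16. Other markers of the list did not: Col1a1, Col1a2 and Col3a1 were higher in CTR than in VAS, by 0.31, 0.30 and 0.64. In BMS they were 0.72, 0.81 and 0.93 higher than in VAS. Against VAS, 9 of the 12 markers were above 0 in BMS, where 53.4% of all genes were, with a median of 0.25. Endothelial markers had medians of 0.08, 0.20 and -0.01 in the 3 comparisons over 11 of 12 past the filter, with Emcn below it. Summed over all 12, their levels were 2063 on VAD, 1920 on VAS, 2373 on BMS and 1804 on CTR. Cldn5, a tight junction gene, was 0.95 higher in VAD and 0.49 higher in BMS, Tek, the angiopoietin receptor gene, differed by -0.59 and 1.42, and Ramp2, a receptor partner gene, by 0.07 and 0.98.

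Epithelial markers had 6 of 12 past the filter, with medians of -0.53 in VAD, -0.02 in BMS and -0.61 in CTR against VAS. Summed over all 12, also those below the filter, their levels were 1326 on VAD, 2814 on VAS, 1173 on BMS and 801.3 on CTR. Epcam, Cdh1, Foxj1, Lamp3, Sftpd and Scgb3a2 were below the filter. Sftpc and Sftpa1, surfactant protein genes, differed by -1.58 and -1.08 in VAD and by 1.82 and 0.03 in BMS, and Sftpb by -0.59 and -0.06. Leukocyte markers had 6 of 11 past the filter, with medians of -0.05, -0.12 and -0.96 in the 3 comparisons. Summed over all 11, also those below the filter, their levels were 2501 on VAD, 2293 on VAS, 1266 on BMS and 1451 on CTR. Adgre1, Cd79a, Ms4a1, Nkg7 and Marco were below the filter. S100a9, a neutrophil gene, was at 9.19 on VAD and 9.21 on VAS but at 6.93 on BMS and 6.47 on CTR. Cd3e, a T cell gene, was 0.71 higher in VAD and differed by -0.42 in BMS, and Cd68, a macrophage gene, differed by -0.00252 in VAD and -0.37 in BMS. The VAS array thus held the highest epithelial sum and the lowest sum over the 8 pericyte genes, and the CTR array the reverse. Sums of linear values weigh bright genes most, and single genes differed from them. Cspg4, Pdgfrb, Rgs5 and Mcam were lowest on VAS, but Higd1b, Cox4i2 and Ndufa4l2 were lowest on VAD and Abcc9 on BMS. The epithelial marker Scgb1a1 was 0.43 higher in CTR than in VAS, where at 5.84 it was below the filter. The part of the markers of other cells in the differences of the pericyte genes was not tested.

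**Figure D4:**
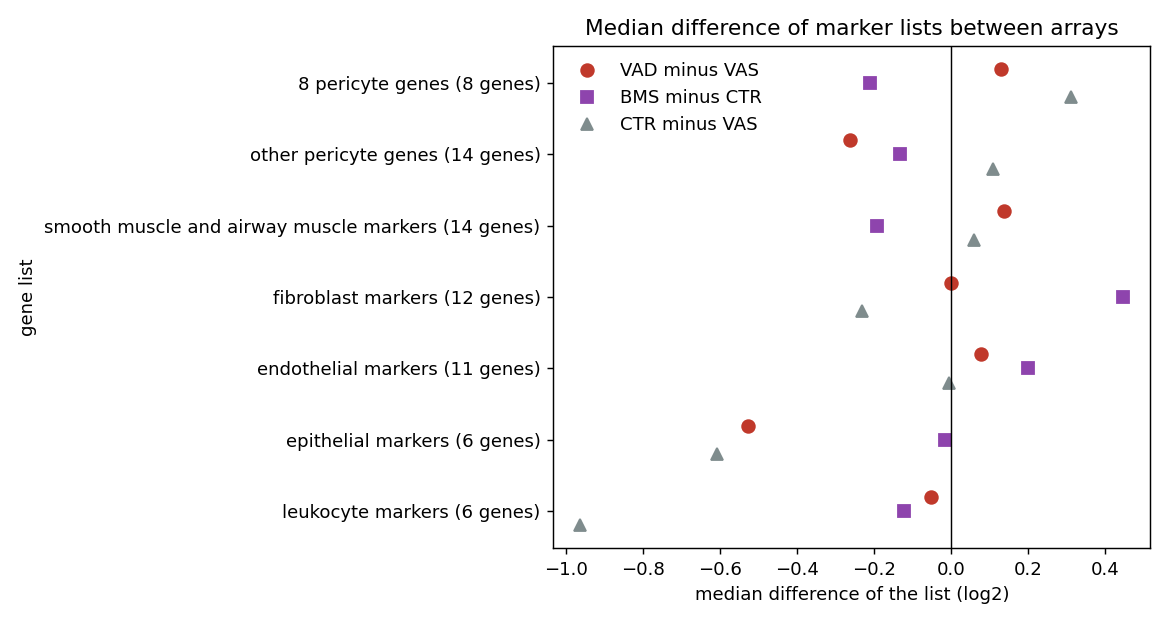
Median difference in log2 value of the 8 pericyte genes and of 6 marker lists, VAD minus VAS (circles), BMS minus CTR (squares) and CTR minus VAS (triangles), over the genes of each list past the filter. In CTR minus VAS the 8 pericyte genes are at 0.31, while fibroblast, epithelial and leukocyte markers are at -0.23, -0.61 and -0.96.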

How the data were processed

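Expression arrays were read as the deposited value table, with 25206 probe sets named by Entrez gene number on 4 arrays. The authors computed these log2 values with RMA in affy 1.36.1 under R 2.15.1, per the submitters' processing notes. RMA subtracts background, equalises the distributions of the arrays and combines the probes of a set, and it would hide a change common to most genes. Whether other arrays entered that step was not given in the sources used here. Detection over background is unknown without scanner data, and precision is limited by having 4 arrays.

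Symbols came from GEO's platform annotation (23185 probe sets with 1 symbol, 2021 unnamed here), and all 23185 matched the RefSeq gene table of GRCm38.p6 by gene number. Groups came from the sample titles. Each comparison is a difference of 2 log2 values, with no test. The joint fit used limma 3.58.1 (lmFit and eBayes) in R 4.3.3, with p-values adjusted by Benjamini-Hochberg across the 12395 filtered genes. It was also run on simulated data with noise drawn from its own variance model. That run checks the code and not how well the fit suits these arrays. Python 3.11.15 and pandas 2.3.3 were used. Alternatives were other controls, normalizations, filters, folds and fit settings.

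The 8 genes and all lists were chosen with earlier results of these data known. The rule for named genes takes all 8, all relatives and partners, up to 3 genes of each further list by the larger difference in either experiment, and the 3 genes nearest in profile to any of the 8 spanning 1 or more. Genes outside it, such as Notch2, Notch3, Notch4, Jag1, Dll1, Nrarp, Gucy1a1, Gucy1b1, Angpt1, Hey1, Hes1, Scgb1a1, Col1a1, Col1a2, Col3a1 and those nearest to Pdgfrb and Higd1b, were named after their values were seen. A few genes on the lists were not analysed here.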

Additional observations from a re-analysis of the deposited data

Results flagged for a closer look

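Genes of the 8 whose direction differed between the experiments were looked at again. Each moved up on the VAD array against VAS and down on the BMS array against CTR, and the difference between the experiments was not tested, since each effect comes from 1 array a side. The VAD effect less the BMS effect was 0.60 on the log2 scale for Cspg4, 0.72 for Pdgfrb, 0.48 for Abcc9 and 0.55 for Mcam. Groups of 1 array cannot be searched for outlying samples.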

How the results depend on the processing

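The choice of control changed the direction of 3 of the 8 genes in VAD and 6 of the 8 in BMS. With CTR as the control of VAD, the median of the 8 genes was -0.41, and Pdgfrb (-0.51), Rgs5 (-0.31) and Mcam (-0.0506) changed sign. With VAS as the control of BMS, the median was 0.0923, and Cspg4 (0.27), Pdgfrb (0.63), Mcam (0.0562), Higd1b (0.0273), Cox4i2 (0.12) and Ndufa4l2 (0.0641) changed sign. Against the mean of both controls the medians were -0.0937 in VAD and -0.0202 in BMS, and the signs of Pdgfrb (-0.0459) and Rgs5 (-0.14) in VAD and of Cspg4 (0.0869) and Pdgfrb (0.16) in BMS changed. Counts of genes at least 1.5-fold apart were then 2 in VAD with CTR or the mean as the control, and 1 in BMS with VAS as the control. At a log2 difference of 0.32 the counts were 4 in VAD and 4 in CTR against VAS, and at 2-fold 0 in each. No share of all genes past a fold is given for the exchanged controls, and none for these other folds, so these counts cannot be called unusual.

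Normalization changed little. Quantile normalization again gave -0.014 for Rgs5 in BMS, and no other of the 8 genes changed sign or moved by 0.1 under it or under cyclic loess. The median in VAD, 0.13 over all 8 genes, was 0.0307 without Cspg4 and 0.23 with the filter at the 75th percentile, which Ndufa4l2 did not pass. The medians in BMS (-0.25 in both settings) and in CTR against VAS (0.29 and 0.33) kept their sign as well. The share of all genes past 1.5-fold stayed within 1.5 times under the other filters and with unnamed probe sets. In the joint limma fit, the number of the 8 genes called was 0 with no block, with a trend, with no filter and without any 1 array in turn (0 to 0, without the block). Without the VAD array the fitted difference of Higd1b was -0.12 and without the BMS array -0.86. The block in that fit pairs the arrays by experiment.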
